A study of Mus musculus with 24 samples.

Results

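Haemoglobin and red cell transcripts were examined in the inguinal fat of mice, a white fat depot under the skin of the groin. The genes are Hba-a1, Hba-a2, Hbb-bs, Hbb-bt, Alas2 and Slc4a1, which are 6 of 16118 genes listed in the deposited table. They were chosen by symbol, as haemoglobin and erythroid genes with lower values at postnatal day 28 (p28) than at day 21 (p21) in these same animals. Their change with age is therefore given as a description, and the comparisons of weaning and of sex are the ones tested. Poly(A) RNA of 24 mice was sequenced, 1 library per mouse, in 6 groups of 4 animals. Males and females were taken at p21. Others of each sex were taken at p28 after standard weaning (SW, parted from the mother at day 21) or after delayed weaning (DW, left with the mother). No transgene or drug is named in the labels, the p21 animals carry the SW label, and the strain and the litters are not given in the sources used here. Each library comes from a different animal, so p-values measure the spread between animals.

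Red cell precursors make haemoglobin from alpha chains, beta chains and haem. Hba-a1 and Hba-a2 encode the adult alpha chain and lie near each other on chromosome 11, and Hbb-bs and Hbb-bt encode adult beta chains and are neighbours on chromosome 7. Alas2, on chromosome X, encodes the erythroid form of 5-aminolevulinate synthase, which makes the first committed intermediate of haem. Slc4a1, on chromosome 11, encodes band 3, the anion exchanger that carries bicarbonate and chloride across the red cell membrane and anchors the membrane skeleton. Reticulocytes, the youngest red cells in blood, have lost their nucleus but still hold globin and Alas2 messenger RNA. GATA1 and KLF1 are the transcription factors best known for switching these genes on, through sites with a GATA or a CACCC core.

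The 250 bases before the RefSeq gene starts (build GRCm38.p6) are shown as background, and their part in the values of these genes was not tested. Capitals mark letters that match 1 of 3 motif kinds on either strand. The GATA kind is AGATAA or its variant TGATAA, and the same with a final G (AGATAG or else TGATAG). The second kind is CACCC, the site type bound by KLF1, and the other is CCAAT, bound by general factors. Matches on the opposite strand appear as the reverse complement, so that the Alas2 GATA match reads TTATCT in its line. Each sequence reads 5′ to 3′ along its gene: Alas2 at chrX:150547167-150547416 (plus strand), Hba-a1 at chr11:32283422-32283671 (plus strand), Hbb-bs at chr7:103827929-103828178 (minus strand) and Hbb-bt at chr7:103813924-103814173 (minus strand).
Alas2: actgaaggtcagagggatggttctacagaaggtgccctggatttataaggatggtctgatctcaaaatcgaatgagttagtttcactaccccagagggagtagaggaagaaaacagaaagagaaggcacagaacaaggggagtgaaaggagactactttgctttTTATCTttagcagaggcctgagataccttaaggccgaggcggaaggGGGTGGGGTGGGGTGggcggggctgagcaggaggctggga
Hba-a1: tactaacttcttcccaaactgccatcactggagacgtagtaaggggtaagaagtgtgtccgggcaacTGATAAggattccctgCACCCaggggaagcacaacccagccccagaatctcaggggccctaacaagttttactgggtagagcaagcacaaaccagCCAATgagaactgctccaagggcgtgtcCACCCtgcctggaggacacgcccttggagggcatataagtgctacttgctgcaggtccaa
Hbb-bs: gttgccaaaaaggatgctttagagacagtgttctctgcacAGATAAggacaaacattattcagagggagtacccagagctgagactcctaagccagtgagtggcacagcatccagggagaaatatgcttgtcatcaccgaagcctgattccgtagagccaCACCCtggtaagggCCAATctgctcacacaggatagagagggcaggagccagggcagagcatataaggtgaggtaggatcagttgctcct
Hbb-bt: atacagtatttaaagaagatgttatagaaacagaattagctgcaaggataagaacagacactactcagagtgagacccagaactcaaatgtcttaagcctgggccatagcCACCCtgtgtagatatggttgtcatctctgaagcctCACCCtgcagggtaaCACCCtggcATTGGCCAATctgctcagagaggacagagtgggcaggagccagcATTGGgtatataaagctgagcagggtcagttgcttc

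RefSeq promoters were matched for 5 of the 6 genes. The Hba-a2 window holds an unbroken run of 247 bases identical to the Hba-a1 window, whereas the longest run shared by the beta windows was 14 bases. A GATA match was found in Alas2 (86 bases before the start), Hba-a1, Hba-a2 and Hbb-bs, and none was found in these letters of Hbb-bt. Every one of the 5 windows held CACCC, with 3 matches in Alas2, 3 in Hbb-bt, 2 in each alpha gene and 1 in Hbb-bs. CCAAT was found in the 4 globin windows and not in Alas2. The motif letters do not overlap one another in these windows. Among 27025 mouse promoters of the same length, 27.1% held a GATA match, 51.3% held CACCC, 34.5% held CCAAT and 11.9% held both GATA and CACCC. A match is a string of letters and not a measured binding site.

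Values are in the authors' unit, reads of a gene divided by a factor for each library. All 6 genes passed the filter on low values and had between 63 and 55543 reads in every animal. Recovered reads per library ranged from 57600711 to 302145813, and 22 libraries had reads in 15859 or more of the genes. The library of p21 male 53 had reads in 14054 genes and that of SW male 84 in 15497, with the 2 smallest totals. Adipocyte genes identified the tissue: Adipoq averaged 1216 and Fabp4 averaged 13461 over the 24 animals. Per kilobase of exon, the mean over animals was 271 for Hba-a2, 241 for Hba-a1, 184 for Hbb-bs, 78.1 for Hbb-bt, 16.0 for Alas2 and 1.5 for Slc4a1. The 6 genes together took 0.0171% to 0.243% of the reads in listed genes. The alpha genes share 56.5% of the 100-base windows of the Hba-a1 transcript with Hba-a2, and the beta genes share 62.6% of those of Hbb-bs with Hbb-bt. Values of a single copy are therefore uncertain where the authors' counting could split reads between copies. In bulk tissue, fewer erythroid cells and less RNA per cell cannot be told apart.

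Per-animal values below follow one order of animals. This order is 37, 38, 53 and 54 for p21 males, 78, 84, 85 and 124 for SW males, and 79, 80, 86 and 87 for DW males. For females it is 30, 36, 55 and 56 at p21, 73, 74, 75 and 81 after SW, and 76, 77, 82 and 83 after DW.

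The alpha globin genes were several-fold lower at p28 than at p21. Hba-a1 was at 227, 176, 635 and 461 in p21 males, at 188, 104, 64.8 and 77.0 in SW males, and at 120, 125, 85.4 and 54.8 in DW males. In females it was at 291, 271, 339 and 381 at p21, at 131, 178, 182 and 129 after SW, and at 184, 148, 68.1 and 70.5 after DW. The p21 and p28 ranges met only in SW males, where animal 78 lay above p21 male 38. The ratio of p21 to p28 means was 3.45 for SW and 3.89 for DW in males, and 2.07 for SW and 2.73 for DW in females. Hba-a2 was at 262, 153, 793 and 280 in p21 males, at 174, 114, 51.9 and 58.4 in SW males, and at 112, 107, 79.4 and 46.7 in DW males. In females Hba-a2 was at 252, 232, 314 and 352 at p21, at 121, 139, 139 and 101 after SW, and at 183, 137, 65.6 and 67 after DW. As with its neighbour, only the SW males reached into the p21 range. By group mean, Hba-a1 ran from p21 males (375 ± 213, SD, n = 4) through p21 females (321 ± 49.3), SW females (155 ± 28.8), DW females (118 ± 57.7) and SW males (108 ± 55.6) to DW males (96.4 ± 32.9). The ranges of the 2 sexes overlapped at each age and weaning, and so did those of SW and DW within each sex.

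The beta globin genes were also higher on average at p21 than at p28 in both sexes. Their spread was wider in males at p21 and after SW, and wider in females after DW. Hbb-bs was at 105, 136, 467 and 294 in p21 males, at 129, 156, 44.0 and 52.3 in SW males, and at 110, 96.1, 68.4 and 33.2 in DW males. In females Hbb-bs was at 244, 204, 257 and 246 at p21, at 72.6, 114, 93.0 and 120 after SW, and at 141, 129, 58.2 and 22.5 after DW. The male ranges overlapped between p21 and both p28 groups, and the female ranges did not. Hbb-bt was at 46.4, 55.4, 156 and 171 in p21 males, at 56.0, 53.4, 15.9 and 26.2 in SW males, and at 27.7, 29.5, 27.0 and 14.5 in DW males. In females Hbb-bt was at 85.5, 73.6, 119 and 99 at p21, at 35.3, 50.3, 34.2 and 27.8 after SW, and at 40.3, 35.1, 28.7 and 9.88 after DW. Its p21 values lay above all p28 values of the same sex except in SW males, where 78 and 84 reached the lower p21 males. The p21 means were 2.63 times (Hbb-bs) and 2.83 times (Hbb-bt) the SW means in males, and 2.38 and 2.56 times in females. Against DW, the same ratios were 3.25 and 4.34 in males and 2.72 and 3.31 in females.

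**Figure D1:**
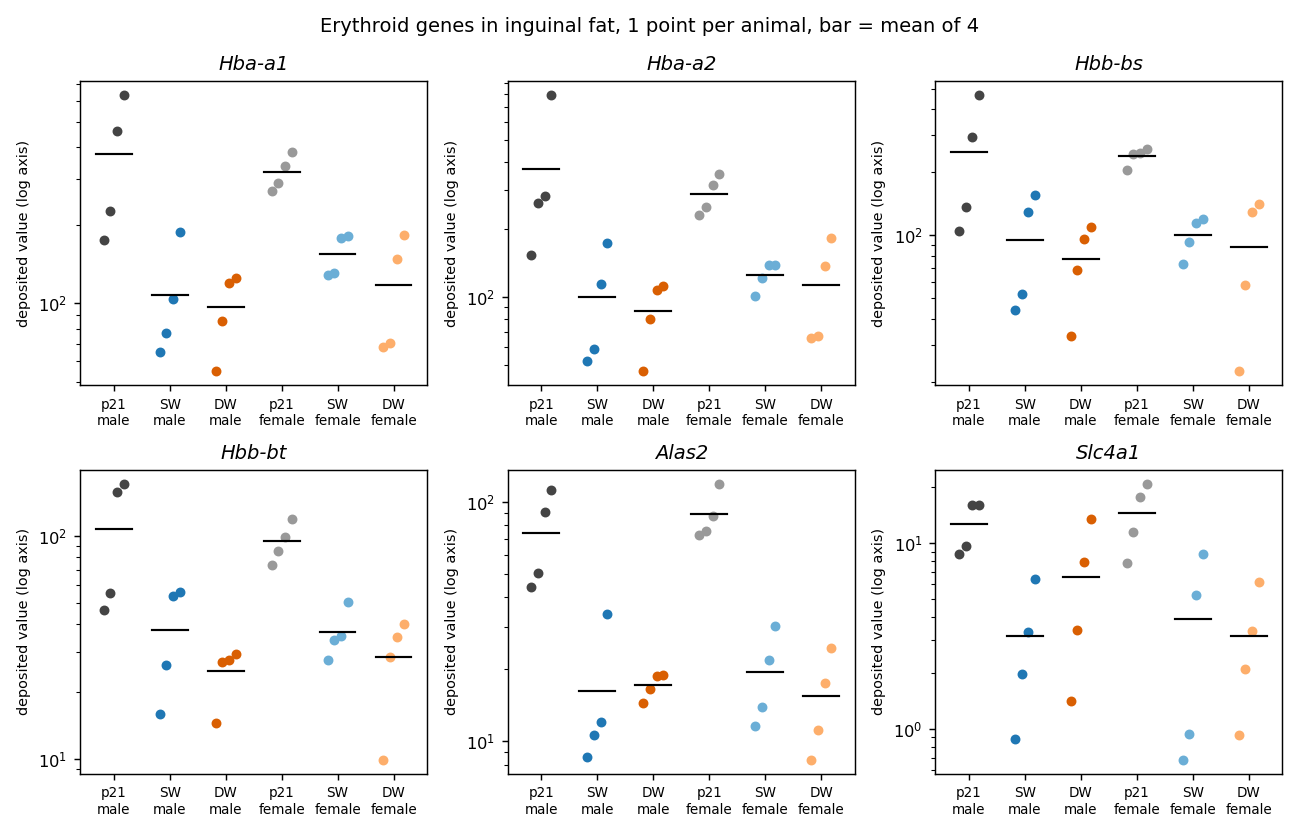
Deposited value of each of the 6 genes (log axis) in the 6 groups, with 1 point per animal and a bar at the mean of 4 animals. Among these 6, which were chosen for lower values at p28, only Alas2 has all p21 points above all p28 points of the same sex.

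Alas2 had p21 and p28 ranges that were apart in all 4 comparisons of age. It was at 50.2, 43.9, 90.9 and 112 in p21 males, at 34.0, 12.0, 10.6 and 8.61 in SW males, and at 18.7, 19.0, 16.6 and 14.4 in DW males. In females Alas2 was at 75.5, 72.7, 86.9 and 119 at p21, at 21.8, 30.2, 11.6 and 13.9 after SW, and at 24.5, 17.5, 11.2 and 8.37 after DW. No p28 animal reached the lowest p21 animal of its sex, which was male 38 or female 36. The fall with age chose these genes, and the share of all genes with ranges apart is not given here. Nothing is therefore read from p21 and p28 ranges that were apart in any of the 6. The p21 mean was 4.55 times the SW mean and 4.32 times the DW mean in males, and 4.57 and 5.75 times in females. By group mean the order was p21 females (88.6 ± 21.3), p21 males (74.2 ± 32.6), SW females (19.4 ± 8.43), DW males (17.2 ± 2.14), SW males (16.3 ± 11.9) and DW females (15.4 ± 7.16, SD, n = 4 each). The sexes overlapped at each age and weaning, and SW overlapped DW within each sex.

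Slc4a1 had the lowest level of the 6 and, in each p28 group, the highest coefficient of variation. It was at 8.77, 9.59, 16.0 and 16.1 in p21 males, at 6.41, 0.882, 1.98 and 3.34 in SW males, and at 3.40, 7.91, 1.42 and 13.5 in DW males. In females Slc4a1 was at 7.79, 20.9, 11.5 and 17.8 at p21, at 8.73, 5.26, 0.938 and 0.680 after SW, and at 3.38, 6.19, 2.11 and 0.925 after DW. The lowest of these values, in SW female 81, rests on 70 reads and the highest, in p21 female 36, on 2227. Ranges of p21 and p28 were apart in SW males and DW females. They overlapped in DW males, through animal 87, and in SW females, through animal 73. The ratio of p21 to p28 means was 3.99 for SW and 1.92 for DW in males, and 3.72 for SW and 4.61 for DW in females. Its coefficient of variation was 98.5% in SW females and 31.4% in p21 males.

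On the log2(value + 1) scale, which understates the change of low genes, limma gave the differences with their errors. In males the SW minus p21 difference was -2.22 for Alas2, -1.72 for Hba-a1, -1.79 for Hba-a2, -1.34 for Hbb-bs, -1.42 for Hbb-bt and -1.84 for Slc4a1, with standard errors of 0.374 to 0.574. In females the SW differences were -2.20, -1.05, -1.19, -1.26, -1.34 and -1.96 in the same order of genes. The DW minus p21 differences were -1.95, -1.83, -1.90, -1.57, -1.89 and -1.11 in males, and -2.53, -1.56, -1.46, -1.74, -1.83 and -1.98 in females. SW and DW were set against the same p21 animals, so these columns are not independent. The median change of all 16005 genes tested lay between -0.00 and 0.02 in the 4 comparisons.

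Under the rule used for all genes (limma, Benjamini-Hochberg adjusted p under 0.05), 5 of the 6 passed as lower in SW males, all but Hbb-bs, where 4.97% of all genes tested did. In SW females Alas2 and Slc4a1 passed, 2 of 6, where 4.23% of all genes did. In DW males 5 of 6 passed, all but Slc4a1, where 6.10% of all genes did. In DW females 6 of 6 passed, where 6.16% of all genes did. Because this contrast chose the genes, nothing is read from these counts. The count in SW males was 3 without p21 male 53 or 54 or without SW male 85 or 124, and 3 without both small libraries (53 and 84). The count in SW females was 1 without p21 female 36 or 56 or without SW female 75 or 81, 6 when only the compared groups were fitted, and 4 when the 2 male libraries of low gene detection (53 and 84) were left out of the shared fit. The count in DW females was 3 without p21 female 56 or DW female 82 or 83. Without p21 male 53, the SW minus p21 difference in males was -2.09 for Alas2 and -1.40 for Hba-a1. The authors' deposited table lists all 6 as lower at p28 than at p21 in the 4 comparisons, with adjusted p-values of 0.0130 or less except for Slc4a1 in DW males (0.215).

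**Figure D2:**
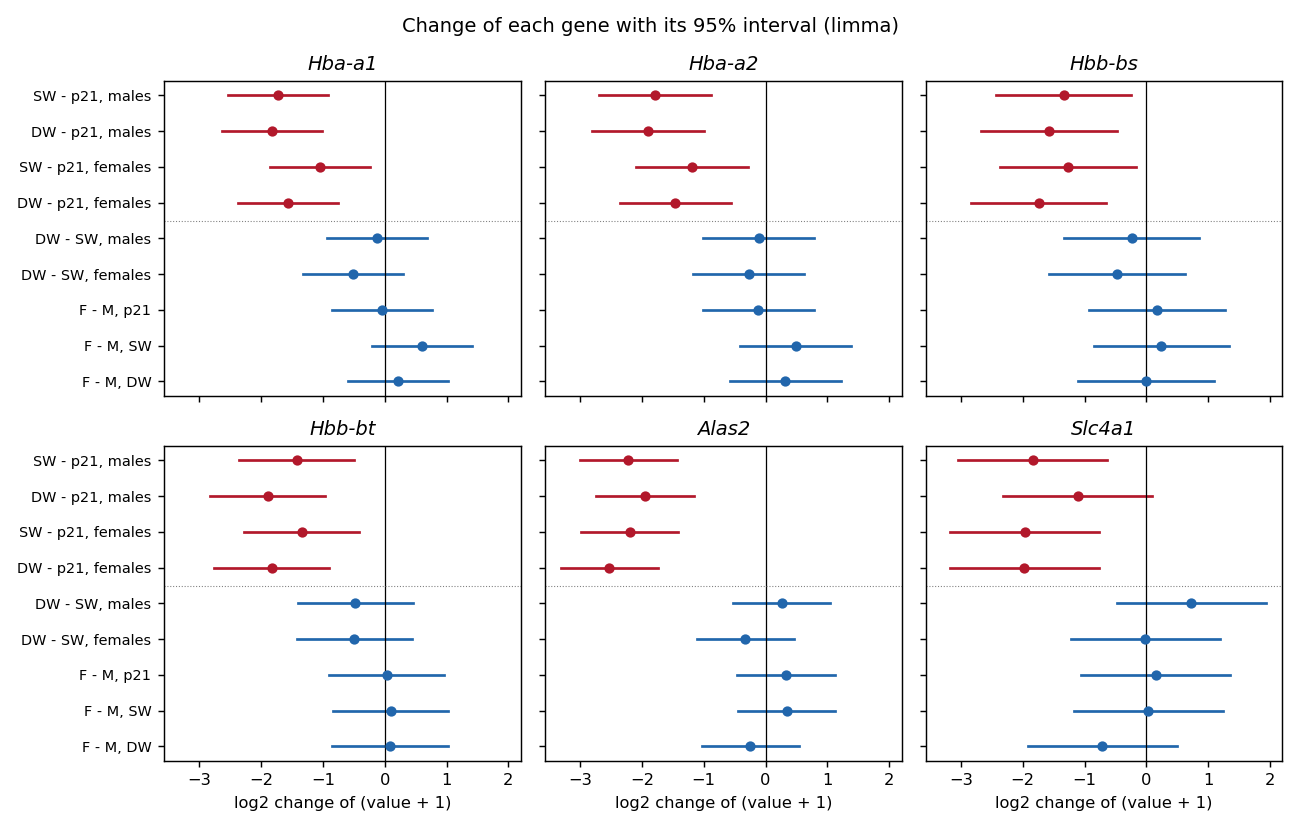
Log2 change of (value + 1) for each gene, with its 95% interval, in 9 comparisons from limma. Changes from p21, above the dotted line, are a description of how the genes were chosen, and the 5 comparisons of weaning and sex below it have intervals that cross 0 for every gene.

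Whether prolonged time with the mother changed these transcripts was asked by comparing DW with SW at p28. In males the DW minus SW difference was 0.27 for Alas2 (95% interval -0.52 to 1.05), -0.12 for Hba-a1 (-0.93 to 0.69), -0.11 for Hba-a2 (-1.01 to 0.79) and -0.23 for Hbb-bs (-1.33 to 0.86). It was -0.48 for Hbb-bt (-1.41 to 0.45) and 0.73 for Slc4a1 (-0.47 to 1.94). By limma 0 of the 6 were called in males, where 0.256% of all genes were, and the smallest adjusted p was 0.920, for Slc4a1. The 4 DW males were thus not separable from the 4 SW males in any of the 6 genes. The intervals allow a DW level of Alas2 between 0.52 lower and 1.05 higher on the log2 scale.

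In females all 6 estimates were below 0, and 0 of 6 were called, where 1.27% of all genes were. The DW minus SW difference was -0.33 for Alas2 (-1.11 to 0.46), -0.51 for Hba-a1 (-1.32 to 0.30), -0.27 for Hba-a2 (-1.17 to 0.62) and -0.48 for Hbb-bs (-1.57 to 0.62). It was -0.49 for Hbb-bt (-1.42 to 0.44) and -0.02 for Slc4a1 (-1.22 to 1.19). DW females 82 and 83 were below both other DW females for every one of the 6 genes, so the DW group spread wider than the SW group for the globins. The smallest adjusted p by limma was 0.458, for Hba-a1. No gene reached an unadjusted p under 0.05 in either sex (0 of 6 in each), and edgeR and DESeq2 on the recovered reads also called 0 of 6.

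The p28 animal numbers form 1 run from 73 to 80 and another from 81 to 87, and SW male 124 belongs to neither. The labels do not say what these runs are. Within the first run the DW minus SW difference of Hbb-bs was 0.55 in females and within the second it was -1.69, with 1 SW female in the second run and 1 SW male in the first. For Alas2 these values were -0.82 and 0.42 in males and 0.06 and -0.47 in females, so the sign was not shared between runs. For Hbb-bt they were -0.94 and -0.54 in males and -0.06 and -0.68 in females. With the run as a covariate 0 of 6 were called in either sex. All p21 animals carry lower numbers (30 to 56), so age and animal number cannot be told apart in the changes from p21.

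The effect of weaning was also compared between the sexes. The difference of the DW minus SW changes, females minus males, ran from -0.75 for Slc4a1 (-2.45 to 0.96) to -0.02 for Hbb-bt (-1.33 to 1.30). By limma 0 of 6 were called, where 0.0187% of all genes were. The change from p21 to SW differed between females and males by -0.12 (Slc4a1, -1.82 to 1.59) to 0.66 (Hba-a1, -0.48 to 1.81). For this difference too 0 of 6 were called, where 1.03% of all genes were. It is built from the falls that chose the genes, so it is a description and nothing is read from its count. Alas2 had nearly the same estimate in the 2 sexes, with a difference of 0.02 (-1.09 to 1.13).

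Sexes were compared at each age and weaning. At p21 the female minus male difference was 0.33 for Alas2 (-0.46 to 1.12) and -0.05 for Hba-a1 (-0.86 to 0.76), with the other 4 between -0.12 and 0.17. By limma 0 of 6 were called, where 0.356% of all genes were. After SW the difference was 0.61 for Hba-a1 (-0.20 to 1.42), 0.49 for Hba-a2 (-0.41 to 1.39) and 0.35 for Alas2 (-0.44 to 1.13). There 0 of 6 were called, where 3.54% of all genes were, and the adjusted p of Hba-a1 by limma was 0.787. After DW it was -0.72 for Slc4a1 (-1.92 to 0.49), -0.25 for Alas2 (-1.03 to 0.54) and 0.32 for Hba-a2 (-0.57 to 1.22), and 0 of 6 were called, where 2.46% of all genes were. No gene had an unadjusted p under 0.05 in these 3 comparisons or in the interactions, and edgeR and DESeq2 called 0 of 6 in each.

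Ratios within an animal do not depend on the scaling of its library. Alpha genes made up 64.7% (median of 24 animals, 51.0% to 80.9%) of the summed globin value, with SW male 84 lowest and DW female 83 highest. The mean was 66.1% ± 5.00 (SD, n = 8) at p21 and 65.4% ± 6.24 (n = 16) at p28. Hbb-bt made up 27.8% ± 4.50 of the beta value and Hba-a1 made up 52.8% ± 3.66 of the alpha value (SD, n = 24). At p21 and p28 these were 29.3% ± 3.80 and 27.1% ± 4.76 for Hbb-bt, and 52.3% ± 5.36 and 53.1% ± 2.63 for Hba-a1, so the 2 ages differed by less than the spread between animals.

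Alas2 and the globins did not keep one ratio across the ages. Per 100 units of summed globin value, Alas2 was at 8.43 ± 1.88 in the 8 p21 animals and at 5.15 ± 1.70 in the 16 p28 animals (SD). In females the ranges were apart: 8.43 to 11.1 at p21, 2.60 to 6.27 after SW and 3.90 to 5.10 after DW. In males they were not, since p21 male 53 was at 4.43 and DW male 87 at 9.65, beside 7.83 to 9.26 in the other 3 p21 males. Slc4a1 per 100 units of globin averaged 1.46 ± 0.610 at p21 and 1.51 ± 2.11 at p28 (SD), with medians of 1.35 and 1.02. At p28 it ran from 0.180 in SW female 81 to 9.03 in DW male 87. These ratios carry no test, because the genes were chosen for their fall.

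**Figure D3:**
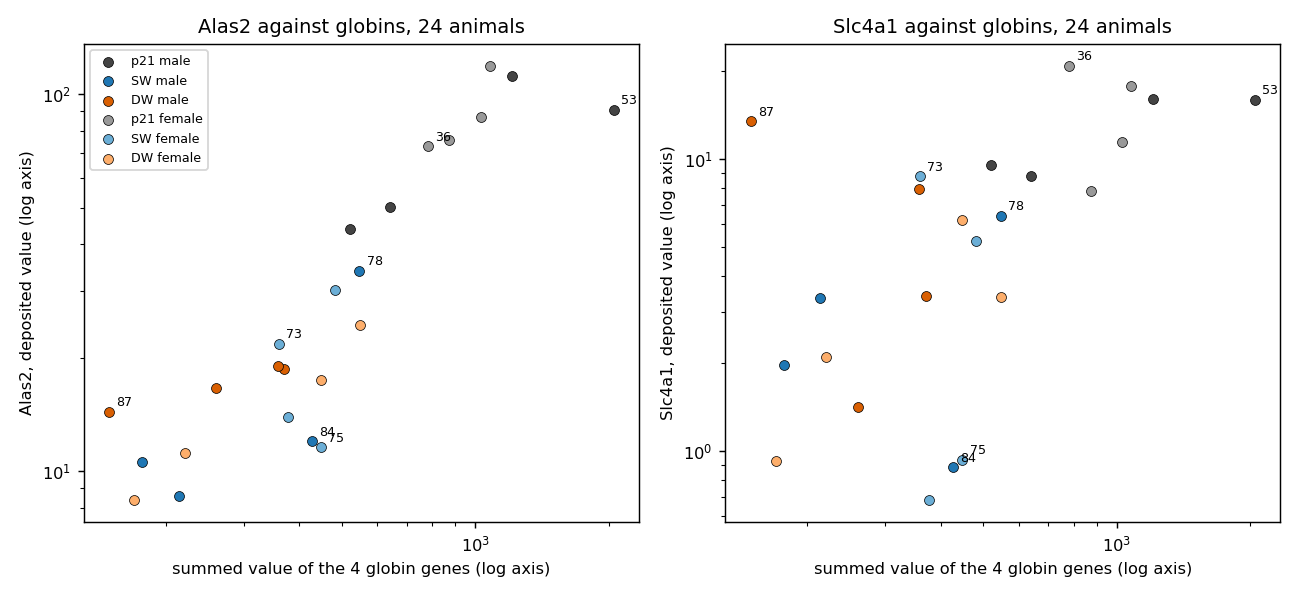
Alas2 (left) and Slc4a1 (right) against the summed value of the 4 globin genes in each of the 24 animals, on log axes, coloured by group. DW male 87 has the lowest globin sum (149) with Slc4a1 at 13.5, and p21 male 53 has the highest (2050).

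Across animals the globins moved as one group and Slc4a1 moved apart from it. With group means removed, log2 values correlated between the globin genes with Pearson r of 0.77 to 0.94, and Alas2 correlated with them at 0.66 to 0.80 (24 animals). Slc4a1 correlated with the globin genes at 0.12 to 0.27 and with Alas2 at 0.56. All points of such a correlation share a library and its scaling, and copies share sequence, so these values are descriptions. Over the 16 other red cell membrane genes, r with Slc4a1 ran from -0.08 (Xk) to 0.87 (Epb42, protein 4.2, which binds band 3). It was 0.84 for Kel (a blood group protein) and for Ermap (an erythroid membrane protein), but 0.01 for Ank1, -0.04 for Tmod1 and 0.05 for Aqp1. Over the late erythroid list, r with Slc4a1 ran from -0.30 (Fbxo7) to 0.82 (Car2). It was 0.71 for Trim58 and 0.69 for Hemgn, whose mean values were only 0.0584 and 0.799. The pattern was thus not one of either list as a whole. Epb42, Kel and Ermap correlated with the summed globins at -0.02, -0.08 and 0.27. The genes of these sentences were singled out after their values were seen. Without animals 53 and 87, the r of Slc4a1 was 0.84 with Epb42, 0.88 with Kel, 0.86 with Ermap, 0.65 with Alas2 and 0.39 with the summed globins (22 animals). Among those 22 animals Epb42, Kel and Ermap correlated with the summed globins at 0.14, 0.23 and 0.25.

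Single values show the split in DW male 87. This animal had the lowest Hba-a1, Hba-a2, Hbb-bs, Hbb-bt and Alas2 of the DW males. It had the highest Slc4a1 (13.5), Epb42 (1.85, against 0.340 to 1.10 in the other DW males) and Kel (1.47, against 0.132 to 0.975) of the group. In p21 male 53 the alpha genes and Hbb-bs were the highest of all 24 animals, and Slc4a1 was at 16.0, beside 16.1 in p21 male 54. This is the library with reads in the fewest genes, and the part of that in these values was not tested.

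The other genes of red cell formation were read from 5 lists (65 genes, of which 58 are in the table and all passed the filter). From p21 to SW, 10 of 58 fell and 4 rose in males by limma, where 4.97% of all genes fell and 6.90% rose. In females 18 fell and 2 rose, where 4.23% fell and 7.39% rose. From p21 to DW, 10 fell and 5 rose in males, where 6.10% fell and 8.86% rose, and 17 fell and 2 rose in females, where 6.16% fell and 5.95% rose. The median change of the 58 was -0.12, -0.16, -0.08 and -0.39 in these 4 comparisons, against -0.00 to 0.02 for all genes. In SW males 9 of 58 were called without p21 male 54 or SW male 85, and in DW males 9 were called without p21 male 54 or DW male 87. Between DW and SW, limma called 0 of 58 in either sex, with 2 of 58 at an unadjusted p under 0.05 in each, and edgeR and DESeq2 called 0. Without DW female 76, limma called 2 of 58 in females.

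Genes of late red cell maturation were the list with the most falls by count, and also the longest of the erythroid lists. The shares of all genes given above apply to this list and to the separate erythroid lists below. Of 19, 7 fell in SW males, 8 in SW females, 8 in DW males and 8 in DW females, while 1 rose (Ypel4) in all but the last. Bpgm, which makes the 2,3-bisphosphoglycerate that tunes oxygen release, went from 74.8 ± 25.9 to 30.8 ± 7.88 in males and from 83.3 ± 21.4 to 31.5 ± 5.08 in females (p21 to SW, SD, n = 4). Its log2 changes were -1.22 and -1.36 for SW and -1.25 and -1.68 for DW in males and females. Tent5c, a poly(A) polymerase, fell by 1.49 and 1.21 on the log2 scale to SW in males and females, and by 1.29 and 1.25 to DW. Mkrn1 (a ubiquitin ligase) and Car2 (carbonic anhydrase 2) also fell in all 4 comparisons, by 0.57 to 0.75 and by 0.67 to 1.13.

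Tfrc, the transferrin receptor that brings iron into precursors and into many other dividing cells, fell to SW in both sexes and to DW in males, by 0.96 to 1.38 on the log2 scale. In DW females it was at 25.3 and 35.2 in animals 76 and 77, and at 91.8 and 87.6 in animals 82 and 83. The p21 females were at 74.1 to 136. Those last 2 DW females are the ones with the lowest globin sums of their group (221 and 170), so Tfrc did not follow the globins there. The adjusted p of Tfrc for DW against p21 females was 0.0866 by limma.

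Of the 12 genes of haem synthesis and its mitochondrial transport, 2 fell in SW males, 5 in SW females, 2 in DW males and 3 in DW females, and 0 rose. Slc25a37, mitoferrin 1, which carries iron into mitochondria of precursors, fell by 0.69 and 0.60 on the log2 scale to SW in males and females and by 0.69 to DW in males. Its values went from 64.1 ± 12.8 to 38.9 ± 0.835 in males and from 57.0 ± 6.80 to 37.5 ± 7.24 in females (p21 to SW, SD, n = 4). Alas1, the form of 5-aminolevulinate synthase used outside the erythroid lineage, fell by 0.51 in SW females and by 0.50 in DW females. Most enzymes of the pathway also work in cells outside the erythroid lineage.

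Of the 16 red cell membrane genes, 4 fell in SW females and 5 in DW females, and 0 rose there. Epb42 fell in both (-0.79 and -0.72), and so did Epb41, protein 4.1 of the membrane skeleton (-0.66 and -1.01). In SW males 1 membrane gene fell and 2 rose, and in DW males 3 rose. The risers were Ank1 (2.13 and 2.11) and Tmod1 (1.41 and 1.57), with Aqp1 (0.64) in DW males. Ank1 and Tmod1 are also known from skeletal muscle. The summed value of 8 skeletal muscle genes was 3.29 to 519 in p21 males, 420 to 6114 in SW males and 303 to 6573 in DW males, and its part in these 2 rises was not tested.

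Of the 9 regulators, limma called 1 higher in SW males, SW females and DW males, 2 higher in DW females, and 0 lower. Epor, the receptor of erythropoietin, rose in all 4 comparisons, by 1.19 and 1.10 to SW and by 1.19 and 1.01 to DW in males and females. It was at 0.560 to 1.28 in the 8 p21 animals and at 1.80 to 4.24 in the 16 p28 animals, opposite in direction to the globins. In bulk tissue the cells that hold Epor cannot be told. Lmo2 was the other riser in DW females (0.46). Gata1 averaged 0.730 and Klf1 averaged 0.166 over all animals, and limma called neither in the 4 comparisons. The change of Gata1 in males depended on the tool and on which p21 males were included. It was -0.57 to SW and -0.54 to DW by limma (adjusted p 0.0641 and 0.0669), and -1.40 and -1.32 by DESeq2, which called both (adjusted p 0.0194 for SW). EdgeR with TMM called it for SW (0.0496) and not for DW (0.0545). Limma called it for both without p21 male 37 or 38 (adjusted p 0.0246 to 0.0293), and gave -0.28 and -0.25 without p21 male 53 (0.230 and 0.274). Gata1 was at 3.20 and Klf1 at 0.832 in p21 male 53, against 0.182 to 1.31 and 0.0358 to 0.348 in the other 23 animals. Of the remaining erythroid globins only Hbq1a and Hbq1b are in the table, each under 0.2 on average, and Hbq1b fell in females (-0.39 and -0.40).

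**Figure D4:**
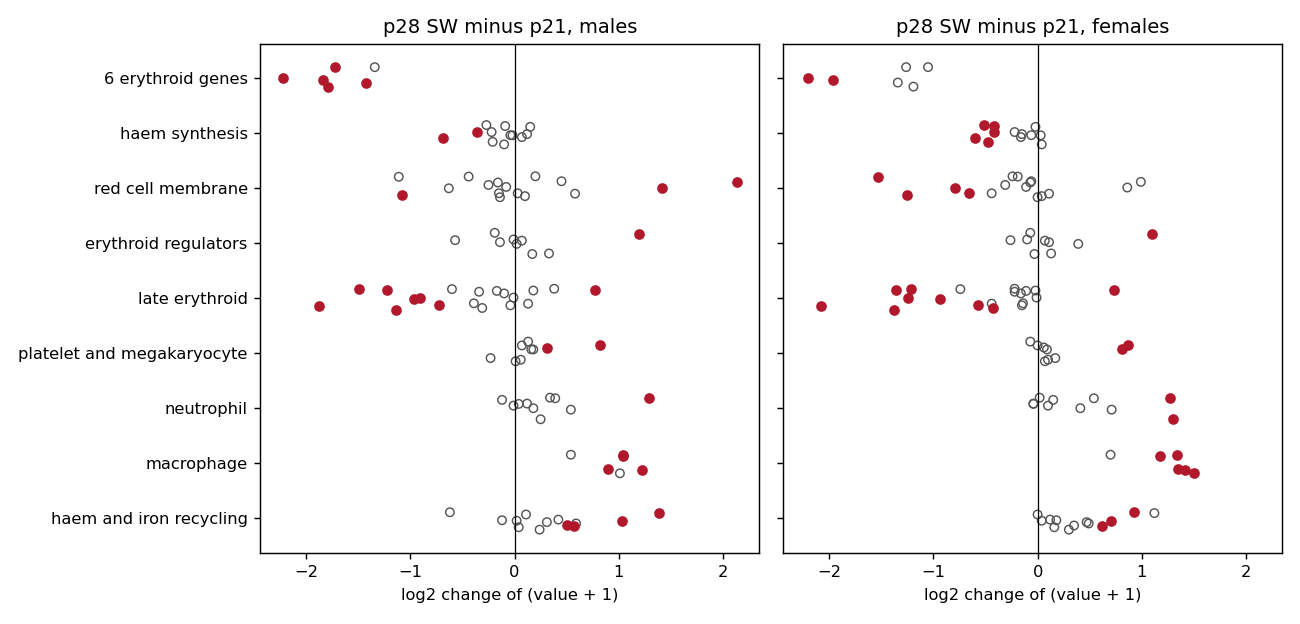
Log2 change of (value + 1) from p21 to SW of each gene in 9 gene groups, males left and females right, filled where limma called the gene. Late erythroid genes lie mostly left of 0 and macrophage genes right of 0 in both sexes.

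Other cells of blood and of the fat pad were read from lists too. Over all genes, 6.90%, 7.39%, 8.86% and 5.95% rose in SW males, SW females, DW males and DW females. In that order 4.97%, 4.23%, 6.10% and 6.16% fell. The lists are short, so a count of 1 or 2 is not read as a change of a cell type. Of 9 platelet and megakaryocyte genes, 2 rose and 0 fell in each of the 4 comparisons, with Itga2b rising in all of them (0.58 to 0.87). Of 10 neutrophil genes, 1 or 2 rose and 0 fell in each, with Cxcr2 rising in all of them (1.27 to 1.35). The summed value of the neutrophil list was 2.06 to 9.69 in males and 7.60 to 38.7 in females. Over its 10 genes, the median female minus male log2 difference was 0.04 at p21, 0.11 after SW and 0.17 after DW. The largest was 2.65, 3.71 and 3.10, so the sums are not read as a number of neutrophils. By limma 1, 1 and 2 were called higher in females, where 0.356%, 3.54% and 2.46% of all genes were called in either direction. Of 6 macrophage genes 4, 5, 6 and 5 rose (SW males, SW females, DW males, DW females), and Csf1r rose by 0.94 to 1.17. Of 8 endothelial genes 2 rose in SW males and 4 in DW males, 0 were called in females and 0 fell. Itgb3 of the platelet list, at -0.23 in SW males, was called lower there without p21 male 53 (-0.37, adjusted p by limma 0.0457).

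Genes of the recycling, storage and transport of haem and iron were also listed. Of 13, 4 rose in SW males, 3 in SW females, 3 in DW males and 2 in DW females, and 0 fell. Over all genes 6.90%, 7.39%, 8.86% and 5.95% rose in the same order. Hmox1, haem oxygenase 1, rose in all 4 comparisons by 0.53 to 0.67, from 25.2 ± 3.77 to 37.6 ± 2.80 in SW males and from 26.0 ± 2.55 to 40.5 ± 4.27 in SW females. Trf, transferrin, rose by 0.47 to 1.03. Fth1, ferritin heavy chain, averaged 901 and was not called for SW (0.24 and 0.30 in males and females). Among globins outside the erythroid lineage, Cygb averaged 41.0 and Mb 11.0, and limma called 0 of 3 in any of the 4 comparisons. Mb, the myoglobin of muscle, differed by 2.23 in SW males by limma (adjusted p 0.121), and was called there by edgeR with TMM (4.91, 0.0176) and DESeq2 (4.88, 0.000318). DESeq2 also called it higher in DW males (3.15, 0.0276), and limma did in SW females when only the compared groups were fitted (2.34, 0.0385).

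Markers of other tissues moved with age as well. The shares of all genes that rose or fell, given above, apply to these counts too. Of 8 skeletal muscle genes 7 rose in SW and DW males. Of 8 mammary epithelial genes 6 rose in SW females and 2 in DW females. Of 8 lymph node genes 3 fell in SW and DW males and 1 in SW and DW females. Of 6 adipocyte genes 2 rose in SW and DW males and 1 fell in SW males. With the scores of the muscle, mammary and lymph node lists as covariates, the SW minus p21 difference of Alas2 was -1.93 in males and -2.97 in females, and the DW difference was -1.54 and -3.06. That of Hbb-bs was -0.63 in males and -1.54 in females for SW. In that fit 1 of 6 passed the rule in SW males, SW females and DW males, and 6 of 6 passed in DW females.

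The genes whose log2 values most resembled the mean of the 6 over 24 animals were found among 10786 genes with a mean value of 5 or more. Bpgm led with a Pearson r of 0.96, with Mkrn1 (0.93), Supv3l1 (0.90), Odc1 (0.89), Plcd1 (0.88), and Car2, Phykpl, Nol10 and Bend3 (0.86 each), where the 99th percentile of all genes was 0.78. Bpgm, Mkrn1 and Car2 are on the late erythroid list. These values include the difference between ages that chose the 6 genes. With group means removed Bpgm again led (0.86), ahead of Cidea, a lipid droplet protein of thermogenic fat (0.78), Eif4e2 (0.78), Jmjd8 (0.77), Dnlz (0.76), Tnc, Prkab1 and Lfng (0.75 each), H13 (0.74) and Ube2l6 (0.73), where the 99th percentile was 0.64. Tnc resembled the 6 genes only within groups: over all 24 animals its r was -0.51.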

How the data were processed

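Poly(A) RNA of 24 fat pads was sequenced (KAPA mRNA HyperPrep, NovaSeqXPlus, per the labels' protocols). Per the submitters' processing notes, fastp, HISAT2, featureCounts and DESeq2 1.38.3 were used with build mm10. Gene starts in the deposited table equal those of GENCODE M21 on GRCm38 for 2.23% of genes, so deposited positions are not printed. The authors deposited a normalised signal per gene and animal, read numbers divided by a factor per library, and, per the file headers, log2 fold changes and adjusted p-values, which the text credits to the authors' deposited table. All values (100%, within 0.01 read) were whole multiples of the value of 1 read, so whole reads were recovered. Of 16208 rows, 90 repeats were left out. Groups follow the age and description labels. The titles of p21 libraries say p28, and 1 title gives an animal number that differs from its other labels.

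The 6 genes and all lists were chosen with earlier results of these data known. limma 3.58.1 (R 4.3.3) was fitted to log2(value + 1) of 16005 genes kept by filterByExpr (minimum count 10), with 1 coefficient per group over all 24 animals, 18 residual degrees of freedom and a variance trend. Intervals use the standard error and those degrees of freedom. Calls required a p-value under 0.05 after Benjamini-Hochberg adjustment over all genes. The fit was tested on simulated data. The design named edgeR on counts if counts were deposited. The file held normalised values, so limma was used. Named genes are the 6, a few fixed erythroid genes (among them Gata1, Klf1, Epor and Tfrc), up to 8 other erythroid genes called in both sexes from p21 to SW, the 10 most alike by each of 2 measures, and up to 2 per other list by mean. Other genes named were singled out after their values were seen. Some genes this rule names are not reported here, and the list counts include them. Alternatives were edgeR 4.0.16 and DESeq2 1.42.0 on recovered reads, TMM-scaled values, a pseudocount of 0.1, no filter, only the compared groups, tissue scores or the run of animal numbers as covariates, and leaving out each animal. No variance trend, and leaving out p21 male 53 with SW male 84, were added after seeing the data.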

Additional observations from a re-analysis of the deposited data

Results flagged for a closer look

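In DW males Hbb-bt had a log2(value + 1) of 3.95 in animal 87, against 4.81 to 4.93 in the other 3, a gap of 0.875 of the group's range. In SW females Hba-a1 made up 52.1% of the alpha value in animal 73, against 56.0% to 56.7% in the other 3, a gap of 0.851 of the range. Both gaps exceed Dixon's critical value for 4 samples. Of 84 groups examined 2 did so, and chance gives about 1 in 20, or 4.2.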

How the results depend on the processing

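The 42 weaning, sex and interaction values of the 6 genes kept their side of the threshold in all 882 recalculations, and 0 of the 6 were called there with any 1 animal left out. The estimates themselves moved, some also in sign. For females minus males after SW, Alas2 (0.35) ran from -1.91 to 0.75 and Hba-a1 (0.61) from -1.12 to 0.92. Others kept their sign, such as Slc4a1 for DW minus SW in males (0.73, from 0.31 to 1.18). For p21 to p28, 359 of 432 recalculated values kept their side, 63 lost it, 10 gained it and 0 reversed. Counts of the 6 past the rule with 1 animal left out were 3 to 5 (males) and 1 to 2 (females) for SW, and 4 to 5 (males) and 3 to 6 (females) for DW. Fitting only the compared groups gave 2 in SW males and 6 in SW females. Tissue scores as covariates gave 1 in SW males, 1 in SW females and 1 in DW males. edgeR with DESeq2 size factors gave 1 in SW females and 3 in DW females, and with TMM gave 3 in DW females. Without p21 male 53 and SW male 84, 3 passed in SW males and 4 in SW females. Of the 58 other erythroid genes, with 1 animal left out, the calls were 9 to 13 (males) and 14 to 19 (females) for SW, 9 to 15 (males) and 15 to 20 (females) for DW, and 0 to 2 for DW against SW in females. Only the compared groups gave 9 in SW males and 11 in DW females, and tissue scores gave 5 in SW males, 10 in SW females and 3 in DW males. With tissue scores Ltf, from the neutrophil list, changed by -0.13 in SW females, against 1.30 without them. The cause of these moves was not tested. No paired analysis was possible because animal numbers are not shared between groups. With 4 animals per group, the 95% intervals of weaning and sex differences were wide (-0.52 to 1.05 for Alas2 in males), and differences within them were not detectable.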
